A study of Homo sapiens with 3 samples.

Results

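CRY1 binding in C4-2 cells was examined at promoters that face both ways, that is, at peak summits lying within 1 kb of annotated transcription start sites (TSSs) on both DNA strands. Of the 2549 CRY1 summits on chromosomes 1 to 22 and X, 507 (19.9%, Wilson 95% interval 18.4 to 21.5) met this rule, which used only the summit position and every transcript of GENCODE release 44 on GRCh37 (hg19). They are called two-strand summits here. The comparison groups were 1143 one-strand summits, with TSSs of a single strand within 1 kb, and 899 summits over 1 kb from any TSS. C4-2 is an established cell line of castration-resistant human prostate cancer and was kept in hormone-proficient medium, with the vehicle named in the labels and no other agent or genotype. Chromatin was immunoprecipitated with a CRY1 antibody in 2 libraries, sequenced beside 1 input library of the same cells, and the authors called peaks once on the immunoprecipitates combined. No peak therefore has a replicate error, read depth is unknown from the peak list, and the intervals given cover the counting of peaks only.

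CRY1 is a cryptochrome that represses transcription in the circadian clock, mainly by binding the CLOCK:BMAL1 heterodimer, which recognises the E-box CACGTG. Many mammalian promoters start transcription in both directions, either between a pair of protein-coding genes arranged head to head or between a coding gene and a long noncoding RNA (lncRNA), and such promoters are usually rich in CpG dinucleotides. E-boxes are also bound by other basic helix-loop-helix factors such as MYC:MAX and USF, so that the motif alone does not name the factor.

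The sequences below were taken from GRCh37 and are shown because they carry the contrast met throughout these promoters, that of strong peaks with and without an E-box at the summit. All are plus-strand sequence read 5′ to 3′. Capitals mark CACGTG, and in the LAMTOR4 stretch also AACGTG, which is the E′-box CACGTT read on the other strand. The first 3 stretches fill the whole space between the nearest TSS of each strand, at chr3:170626434-170626645 for EIF5A2 and the lncRNA ENSG00000286856, at chr7:99746299-99746534 for LAMTOR4 and the lncRNA ENSG00000288976, and at chr2:239197468-239197767 for PER2 and the lncRNA ENSG00000283635. The last 2 are the summit with 50 bases on each side, at chr19:45681618-45681718 between TRAPPC6A and BLOC1S3 and at chr1:150254636-150254736 between the lncRNA ENSG00000289041 and CIART.
EIF5A2: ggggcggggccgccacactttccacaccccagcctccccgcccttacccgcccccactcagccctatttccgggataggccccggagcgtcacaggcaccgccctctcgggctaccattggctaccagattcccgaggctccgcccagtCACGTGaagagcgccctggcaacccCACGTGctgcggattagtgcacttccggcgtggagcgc
LAMTOR4: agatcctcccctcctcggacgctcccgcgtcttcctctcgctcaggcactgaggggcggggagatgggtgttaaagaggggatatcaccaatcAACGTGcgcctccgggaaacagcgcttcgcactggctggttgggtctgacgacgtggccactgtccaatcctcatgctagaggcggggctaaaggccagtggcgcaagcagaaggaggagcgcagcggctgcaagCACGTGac
PER2: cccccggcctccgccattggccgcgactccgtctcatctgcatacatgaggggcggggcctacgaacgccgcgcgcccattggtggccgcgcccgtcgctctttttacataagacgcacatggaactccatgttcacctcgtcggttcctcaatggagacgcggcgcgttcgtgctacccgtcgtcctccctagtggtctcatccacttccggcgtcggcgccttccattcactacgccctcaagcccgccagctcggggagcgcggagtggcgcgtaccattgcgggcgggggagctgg
BLOC1S3: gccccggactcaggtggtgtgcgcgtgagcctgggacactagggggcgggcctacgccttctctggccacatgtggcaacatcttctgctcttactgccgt
CIART: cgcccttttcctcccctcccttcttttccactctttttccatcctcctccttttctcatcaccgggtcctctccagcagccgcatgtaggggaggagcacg
The EIF5A2 stretch holds 2 E-boxes starting at bases 150 and 175, with the summit at base 197. The LAMTOR4 stretch holds its E-box at base 229 and the E′-box at base 94, with the summit at base 195. The PER2, BLOC1S3 and CIART stretches hold neither form.

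The strongest two-strand peak of all lay at PER2, which encodes a core clock repressor that partners CRY1. This peak (chr2:239196378-239199005) also ranked 1 in the whole list by −log10 q, at 88.5, with 22.8-fold enrichment over the local background and a width of 2628 bp. By fold enrichment it came first among the two-strand peaks only, since one-strand peaks reached 24.0 and peaks beyond 1 kb 23.2. Its summit lay 129 bp from the PER2 TSS and 172 bp from that of the lncRNA on the other strand, between the pair. The nearest E-box in the peak was 506.5 bp away from the summit. An E′-box lay nearer, at -150.5 bp from the summit and outside the stretch shown above.

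Clock genes held 3 more places among the 10 two-strand peaks with the highest −log10 q. NR1D2, which encodes the nuclear receptor repressor REV-ERBβ, was paired with NKIRAS1, an inhibitor of NF-κB signalling. The NKIRAS1 TSS lay 470 bp downstream of the NR1D2 TSS, and the summit was 757 and 287 bp from them. The peak there (chr3:23986711-23988202) was enriched 17.8-fold (−log10 q 77.8) and held 3 E-boxes, the nearest 25.5 bp from the summit. The peak at the CRY1 gene itself (chr12:107486544-107488311) spanned 1768 bp and was enriched 11.2-fold (−log10 q 58.4). No E-box was found anywhere in it, and the only E′-box lay at -223.5 bp from the summit. CIART, a circadian repressor, carried the widest two-strand peak (chr1:150253426-150256618, 3193 bp), enriched 10.1-fold (−log10 q 55.8). It held 5 E-boxes, the nearest 152.5 bp from the summit.

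The other 6 of these 10 peaks lay at genes of other functions. The peak between EPS8L2, an actin regulator of the EPS8 family, and DEAF1, a transcription factor (chr11:694250-695122), was enriched 22.3-fold (−log10 q 73.0), with an E-box 0.5 bp from its summit and 4 in the peak. BLOC1S3, a subunit of a complex that builds lysosome-related organelles, faced TRAPPC6A, a vesicle tethering factor, across 547 bp, and the peak there (chr19:45681072-45682329) had a fold enrichment of 20.4 with its nearest E-box 106.5 bp from the summit. At CLN6, whose loss causes a lysosomal storage disease, the peak (chr15:68521466-68523134) had a fold enrichment of 19.4 and 2 E-boxes within 50 bp of the summit. EIF5A2 encodes a translation factor, and its peak (chr3:170626302-170627107) had a fold enrichment of 15.0 with the nearer E-box 19.5 bp from the summit. The peak beside HRAS, which encodes a RAS GTPase, and LRRC56 (chr11:536647-537910) had a fold enrichment of 16.3 and 4 E-boxes, the nearest 23.5 bp from the summit. LAMTOR4, a subunit of the lysosomal Ragulator complex, had a peak (chr7:99746065-99746890) of 15.7-fold enrichment with its E-box 36.5 bp from the summit.

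Of these 10 peaks, PER2, BLOC1S3, CRY1 and CIART had no E-box within 50 bp of the summit, and all but CRY1 had one elsewhere in the peak. The peaks ran past both nearest TSSs at each of the 10, as the map of their starts and motifs shows.

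**Figure D1:**
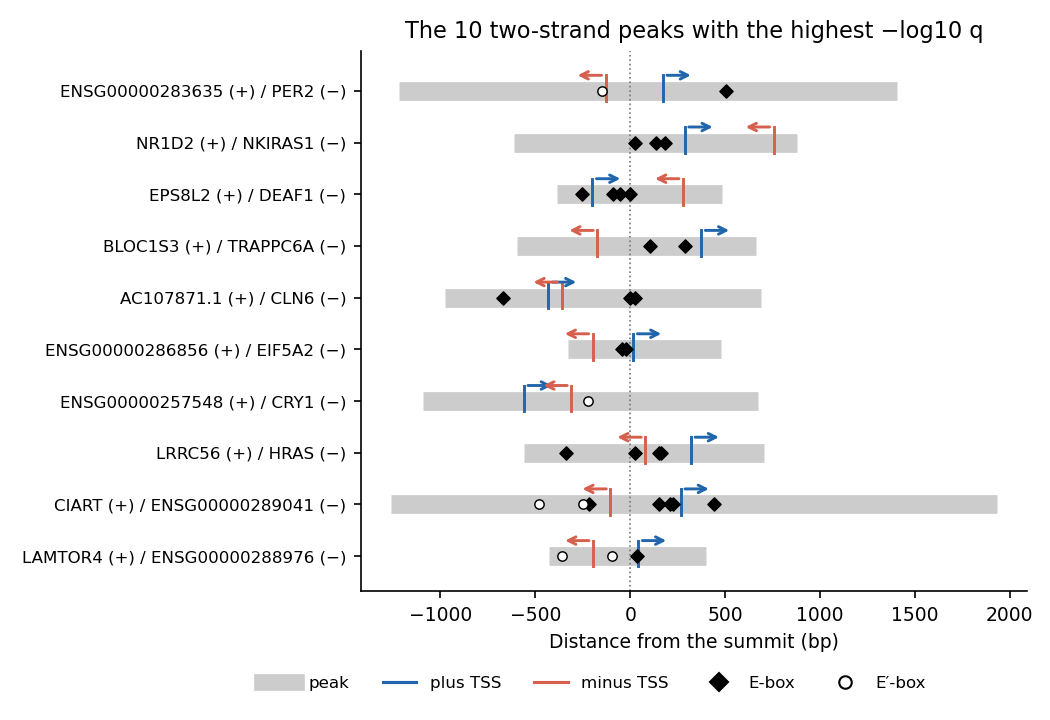
Peak extents (grey), nearest plus-strand (blue) and minus-strand (orange) TSSs with their direction of transcription, E-boxes (black diamonds) and E′-boxes (open circles) at the 10 two-strand peaks with the highest −log10 q, each drawn in bp from its own summit. The CIART peak spans 3193 bp and holds 5 E-boxes, while the CRY1 peak holds none.

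The genes on the 2 strands were most often a coding gene and a lncRNA. Such pairs held 304 of the 507 summits (60.0%, 55.6 to 64.1), and coding-coding pairs held 160 (31.6%, 27.7 to 35.7). The remaining members were few, with 18 at coding-other, 13 at lncRNA-lncRNA, 8 at lncRNA-other and 4 at other-other pairs, where other covers pseudogenes and the remaining biotypes. In all, the nearest genes formed 400 different pairs of 799 genes, of which 510 were coding and 261 lncRNA. Summits within 2 kb of each other were merged into loci, and the 507 fell into 400 of these, 97 of them with more than 1 summit and none with more than 3. Members of a shared locus are not independent of each other. As an example, EIF3E, a translation initiation subunit, and EMC2 had 2 summits at their common promoter, with fold enrichments of 13.4 and 4.73.

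Most pairs were divergent, meaning that the minus-strand TSS lay to the left of the plus-strand TSS so that the genes point away from each other. This held for 387 of 507 summits (76.3%), while at 120 the nearest TSSs pointed past each other. The latter are called overlapping from the order of their TSSs alone, and overlap of the transcripts themselves was not determined. The distance between divergent TSSs had a median of 262 bp (quartiles 138 to 428.5) and ran from 1 to 1131 bp. Its shortest values were 1 bp, at CNPY3, a chaperone for Toll-like receptors, where 2 summits lay on opposite sides of the TSSs, and at DPH6, an enzyme of diphthamide synthesis. The longest were 1131 bp at CCDC57, 1127 bp between TYW1 and the ribosome maturation gene SBDS, and 1030 bp at EN2, a homeobox gene. Coding-coding summits were divergent in 143 of 160 cases (89.4%) and coding-lncRNA summits in 218 of 304 (71.7%), with median distances of 276 and 238.5 bp. Pair type and arrangement both come from the annotation, and this difference was not tested.

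At the distance limit, the last summits inside it lay 991 bp from the TSS of PPM1A and 996 bp from that of CELSR3, and the first outside lay 1009 bp from that of PRDX6 and 1013 bp from an lncRNA TSS beside SETD7. Fold enrichment was 8.37 and 3.46 at the former and 4.46 and 5.18 at the latter.

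CRY1 summits sat close to one of the starts. The nearest TSS was a median 81 bp away and the nearest TSS of the other strand 352 bp (quartiles 201 to 564.5), and at 275 summits (54.2%) a TSS lay within 100 bp. Of the 14.4 Mb with TSSs of both strands within 1 kb, 4.25 Mb lay that near to a TSS. Among one-strand summits it was 388 of 1143, with 24.8 of 199 Mb of one-strand sequence that near. Both strands had a TSS within 250 bp at 173 summits (34.1%), and the called peak itself covered both nearest TSSs at 80 (15.8%). As the map of TSS positions shows, the summits of divergent pairs were found between the starts and on either side of them.

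**Figure D2:**
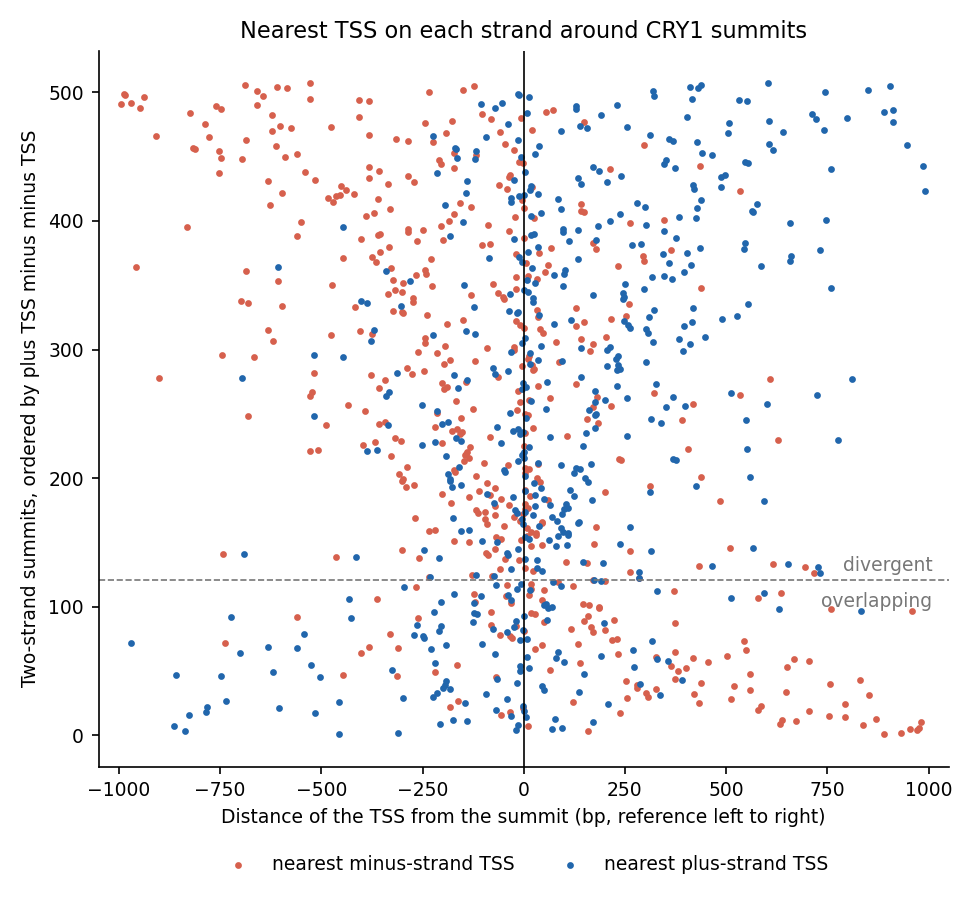
Position in bp of the nearest plus-strand (blue) and minus-strand (orange) TSS relative to each of the 507 two-strand summits, one per line, ordered by the position of the plus-strand TSS minus that of the minus-strand TSS. The dashed line separates the 120 overlapping pairs from the 387 divergent ones, in which a summit between the starts has orange to its left and blue to its right.

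Relative to the sequence available, summits were found more often between divergent TSSs. The stretch between a divergent pair held 155 summits (30.6%, 26.7 to 34.7) and 19.8% of all bases that have TSSs of both strands within 1 kb. Outside the pair on either side lay 232 summits (45.8%, 41.5 to 50.1) and 48.0% of the bases. Between overlapping TSSs lay 50 summits (9.86%, 7.56 to 12.8) and 13.4% of the bases, and beside them 70 (13.8%, 11.1 to 17.1) and 18.8%. The bases were not matched for distance to the nearest TSS, and those outside a pair reach up to 1 kb from it. The part of that distance in these shares was not tested. Within the divergent stretch, summits were spread along its length, with quartiles of their position at 22.7, 57.0 and 85.4, counted in percent from the minus-strand TSS. The middle 25 to 75% held 62 of the 155 (40.0%), and the nearer TSS was a median 45 bp away. The share of divergent summits lying between the TSSs was 20.7% for distances up to 100 bp (n = 58), 25.8% from there up to 300 bp (n = 163), 56.8% up to 600 bp (n = 111) and 69.1% above that (n = 55). The stretch between the TSSs is longer in each later group by definition.

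Two-strand sequence made up 14.4 Mb of the genome and one-strand sequence 199 Mb. Summits fell in them at 35.2 and 5.75 per Mb, a ratio of 6.12 (95% interval 5.50 to 6.80, conditional exact). The ratio was 4.13 when both kinds of sequence were limited to 100 bp from the nearest TSS, and 4.69 with 1 canonical transcript per gene. GC content was 55.1% in two-strand and 46.2% in one-strand sequence, and its part in the ratio was not tested. Counted by gene, 7408 of 20098 coding genes had a TSS of the opposite strand within 1 kb of one of their own, and a CRY1 summit lay within 1 kb at 672 of them (9.07%, 8.44 to 9.75). Among the other 12690 coding genes the figure was 670 (5.28%, 4.90 to 5.68).

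At coding-lncRNA pairs the summit was nearer to the coding TSS at 191 of 304 (62.8%, 57.3 to 68.1), given as a description with no test. The median distance was 165 bp (quartiles 49 to 330) to the coding TSS and 253 bp (103.5 to 518) to the lncRNA TSS. Coding genes in these pairs had a median of 7 annotated TSSs and the lncRNAs 1, so that equal shares are not the value expected without a preference. The share was 59.0% with 1 canonical transcript per gene, 59.0% with TSSs within 500 bp and 59.6% among peaks of at least 5-fold enrichment. Of the 304 summits, 164 (53.9%) were upstream of the coding TSS and 187 (61.5%) upstream of the lncRNA TSS.

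The strength of two-strand peaks lay near that of the other classes, and no difference passed the test. Median fold enrichment was 5.21 (quartiles 4.33 to 6.53, range 2.59 to 22.8) against 5.25 at one-strand summits and 5.14 beyond 1 kb. The share above the median of the whole list (5.18) was 50.5% and 51.8% for two-strand and one-strand summits, an odds ratio of 0.949 (95% interval 0.766 to 1.18, two-sided Fisher's exact test, adjusted p = 0.746). Fold enrichment reached 10 at 47 members (9.27%), where the share over all summits was 8.16%. Of the 100 peaks with the highest −log10 q 22 were members, and of the first 500 it was 89 (17.8%), beside the 19.9% of the list that they form.

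Against summits over 1 kb from a TSS, the odds ratio for fold enrichment was 1.17 (0.938 to 1.47, exact test, adjusted p = 0.317). It was 1.37 with 1 summit per locus (exact test, adjusted p = 0.0498) and 1.36 within E-box presence (Cochran-Mantel-Haenszel test, adjusted p = 0.0354), both past the threshold of 0.05.

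Width was somewhat lower at two-strand summits without passing the adjusted test. The median was 171 bp (quartiles 108 to 378, range 83 to 3193) against 195 bp at one-strand summits, and 46.5% against 52.3% exceeded the overall median of 181 bp (odds ratio 0.794, 0.640 to 0.984, two-sided Fisher's exact test, p = 0.0328, adjusted 0.142). Beyond 1 kb the median was 177 bp (odds ratio 0.917, 0.732 to 1.15, exact test, adjusted p = 0.631). Peaks of 600 bp or more numbered 56 (11.0%), beside 12.1% of all peaks. Fold enrichment and width rose together over the 507 members (Spearman's rho 0.546, a description of peaks that share their libraries).

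No difference in strength between the pair types passed the test. Coding-coding summits had a median fold enrichment of 5.52 and coding-lncRNA summits 5.14, and 56.9% against 48.0% were above the list median (odds ratio 1.43, 0.954 to 2.14, exact test, adjusted p = 0.256). Their median widths were 184.5 and 157 bp (odds ratio of exceeding the list median 1.32, 0.881 to 1.97, exact test, adjusted p = 0.317). The 3 coding-coding pairs with the highest −log10 q were NR1D2 with NKIRAS1, EPS8L2 with DEAF1 and BLOC1S3 with TRAPPC6A, and the 3 coding-lncRNA pairs were those of PER2, EIF5A2 and CRY1. Divergent and overlapping pairs had median fold enrichments of 5.23 and 5.19 (odds ratio 1.03, 0.667 to 1.58, exact test, adjusted p = 0.917) and widths of 171 and 175.5 bp (0.951, 0.618 to 1.47, exact test, adjusted p = 0.904). With 1 canonical transcript per gene the width ratio turned to 1.80 (exact test, p = 0.0221, adjusted 0.0942), and among peaks of at least 5-fold enrichment the ratio for fold enrichment turned to 0.668 (exact test, adjusted p = 0.655).

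At divergent pairs the place of the summit went with its strength in a way that was described and not tested. Between divergent TSSs the median fold enrichment was 5.52 and the median width 231 bp, while beside them the medians were 5.09 and 152 bp. Fold enrichment of at least 10 was found in 12.3% and 6.47% of these groups, and widths of at least 600 bp in 18.1% and 7.76%. Overlapping pairs did not share this order of strength. Their medians were 5.17-fold and 192 bp between the TSSs, and 5.22-fold and 163.5 bp beside them. Fold enrichment of at least 10 was found there in 6% between and 14.3% beside, and widths of at least 600 bp in 8% and 8.57%. At divergent coding-lncRNA pairs the 89 summits lying on the coding gene's side had the lowest medians, 4.60-fold and 134 bp, compared with 5.31-fold and 175.5 bp at the 48 on the lncRNA's side and 5.29-fold and 185 bp at the 81 in between. Median GC content of the summit windows in these groups was 72.3, 65.8 and 70.3%, and its part was not tested. The distance between divergent TSSs itself was nearly unrelated to fold enrichment (Spearman's rho 0.0034) and to width (0.058) over the 387 summits, given as descriptions.

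**Figure D3:**
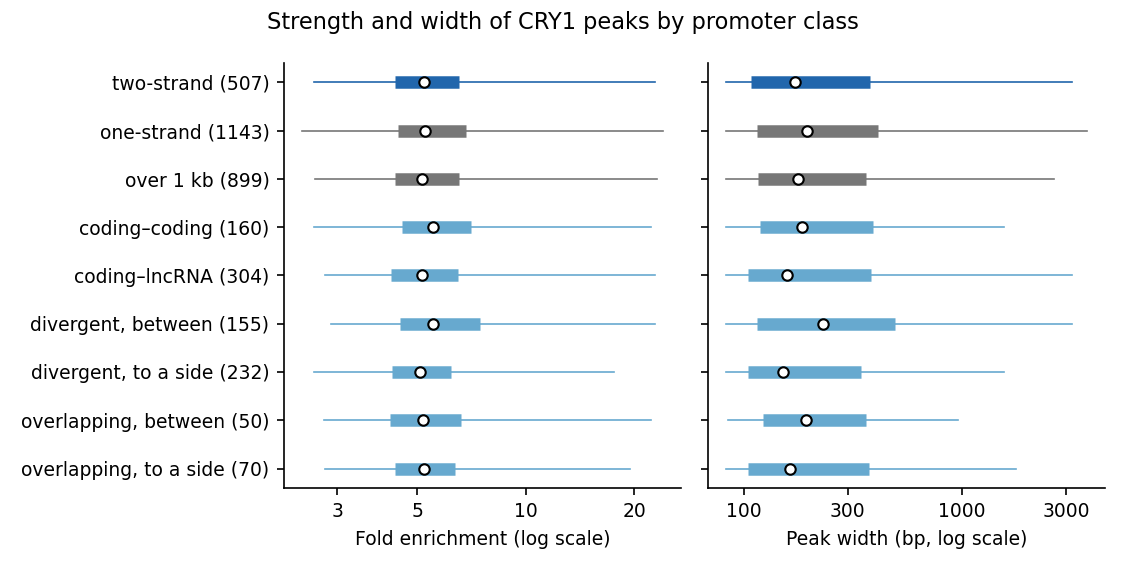
Fold enrichment (left) and peak width in bp (right), both on log axes, for two-strand summits (dark blue), the comparison classes (grey) and subgroups of two-strand summits (light blue), with n in brackets. Circles are medians, thick bars quartiles and thin lines ranges, and the medians of fold enrichment lie between 5.09 and 5.52 in every group drawn.

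An E-box lay within 50 bp of the summit at 209 of the 507 members (41.2%, 37.0 to 45.6), where the share over all summits was 47.8%. CACGTG reads the same on both strands, and it was present in 3.30% of windows of the same length around 19819 coding TSSs. One-strand summits held it at 521 of 1143 (45.6%), a difference that did not pass the test (odds ratio 0.837, 0.673 to 1.04, two-sided Fisher's exact test, adjusted p = 0.278). Beyond 1 kb it was present at 488 of 899 (54.3%, odds ratio 0.591, 0.471 to 0.741, two-sided Fisher's exact test, p = 2.97e-06, adjusted p = 3.87e-05). Median GC content of the windows was 69.3% at two-strand summits and 54.5% beyond 1 kb, and within tertiles of GC content that odds ratio was 0.716 and no longer past the threshold (Cochran-Mantel-Haenszel test, adjusted p = 0.0663, beside 3.87e-05 by the exact test without tertiles).

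The E-box share by pair type and arrangement showed no difference past the test either. It was 43.8% at coding-coding and 39.5% at coding-lncRNA summits (odds ratio 1.19, 0.793 to 1.79, exact test, adjusted p = 0.607), and 42.1% at divergent and 38.3% at overlapping pairs (1.17, 0.755 to 1.83, exact test, adjusted p = 0.682). The lowest share by position was between overlapping TSSs, with 13 of 50 (26.0%, 15.9 to 39.6), and the highest beside them, with 33 of 70 (47.1%, 35.9 to 58.7). Between divergent TSSs it was 43.9% and beside them 40.9%. The small lncRNA-lncRNA class held an E-box at 9 of 13 summits (69.2%, 42.4 to 87.3). On the coding gene's side of divergent coding-lncRNA pairs the share was 31.5% (22.8 to 41.7), on the lncRNA's side 45.8% (32.6 to 59.7) and in between 44.4% (34.1 to 55.3), intervals that overlap.

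**Figure D4:**
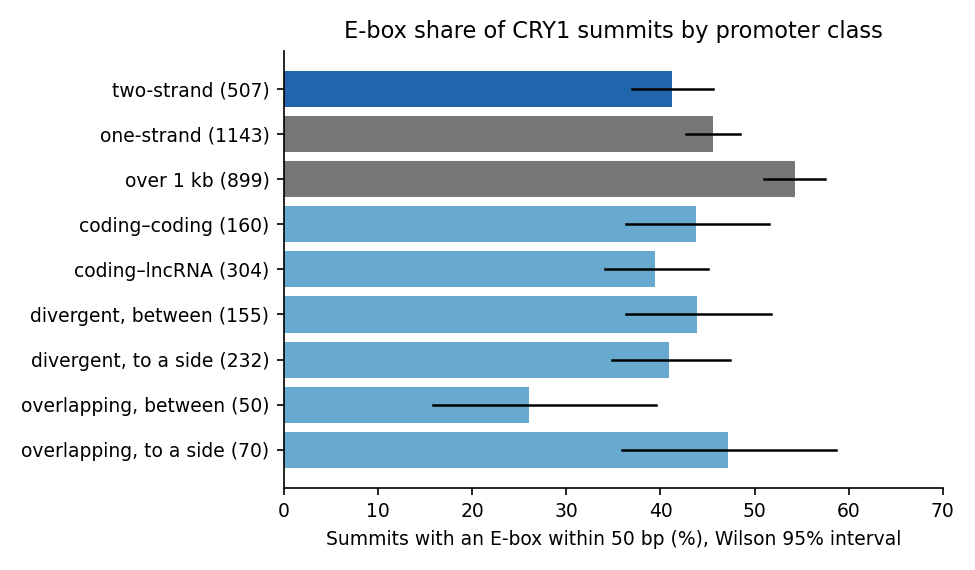
Percent of summits with an E-box within 50 bp for the summit classes and for subgroups of two-strand summits, with n in brackets and Wilson 95% intervals as black lines. Two-strand summits stand at 41.2% and summits beyond 1 kb at 54.3%, and the subgroups range from 26.0% to 47.1% with wide intervals.

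Within the window of 50 bp on each side, the 209 summits held 226 E-boxes, 192 with 1 and 17 with 2, and the centre of the nearest was a median 18.5 bp from the summit (quartiles 10.5 to 31.5), within 20 bp at 114 (54.5%). These distances are bounded by the window and leave out E-boxes farther off in the peak, such as those at PER2 and CIART. One-strand summits gave the same median of 18.5 bp and 54.9% within 20 bp. The 17 pairs of sites were spaced from 15 to 68 bp apart, with no spacing found more than 2 times. At divergent pairs, 86 of 177 E-boxes (48.6%) lay between the TSSs, as at EIF5A2 and LAMTOR4 above, and the others lay within a transcribed side.

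An E-box was found more often at stronger peaks in both promoter classes, given here as a description. With all peaks divided by fold enrichment into 5 groups of like size, the two-strand share was 26.1% in the weakest and then 34.4, 30.0, 50.4 and 64.9% in the strongest, where the one-strand shares were 27.8, 38.0, 39.5, 56.2 and 64.0%. The intervals of the classes overlapped in each group. Members with no E-box, 1 and 2 had median fold enrichments of 4.87, 5.93 and 5.75 and median widths of 143, 290.5 and 384 bp. Taking the whole called peak, 255 members (50.3%) held an E-box, against 56.4% of one-strand peaks, and 52 of the 298 without one near the summit had one elsewhere in the peak. A longer peak has more room for a site, and of the 56 peaks of at least 600 bp 40 (71.4%) had an E-box near the summit and 51 (91.1%) anywhere. Among the 47 members with at least 10-fold enrichment, 30 (63.8%) had one near the summit. Of the 298 summits without an E-box, 24 (8.05%) had an E′-box.

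**Figure D5:**
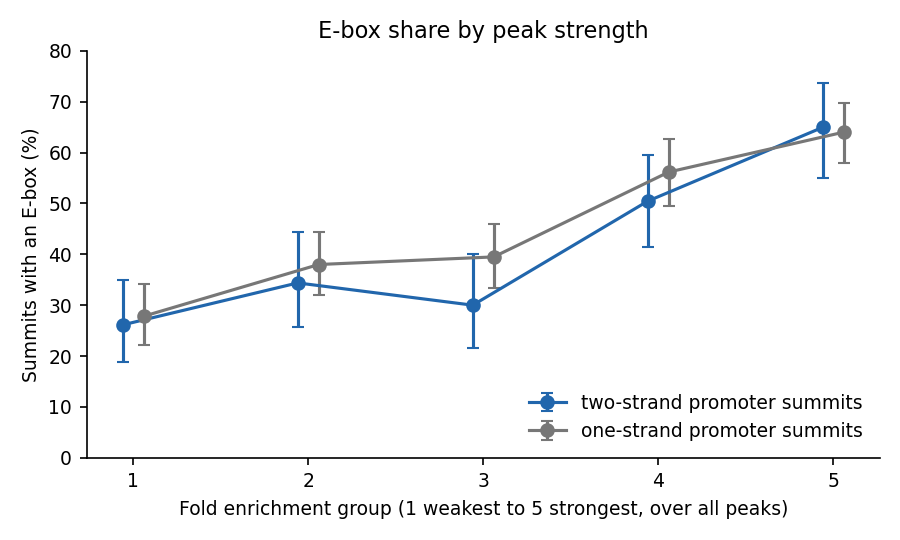
Percent of summits with an E-box within 50 bp in each of 5 groups of all peaks by fold enrichment, for two-strand (blue) and one-strand (grey) promoter summits, with Wilson 95% intervals. The two-strand share runs from 26.1% in the weakest group to 64.9% in the strongest, beside 27.8% and 64.0% for one-strand summits.

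Other promoter motifs were searched as exact letters on both strands of the same windows. The ETS core CCGGAAG was found at 30 two-strand summits (5.92%, 4.18 to 8.32) and at 3.15% of one-strand summits (odds ratio 1.93, 1.14 to 3.27, two-sided Fisher's exact test, p = 0.0135, adjusted over 9 motifs 0.122). It was the only 1 of the 9 with an unadjusted p below 0.05, and 0 passed after adjustment. Its share was 2.94% over all summits and 8.34% of coding TSS windows, and with 100 bp on each side it was 9.47% against 5.60% (exact test, adjusted p = 0.0503). The GC box GGGCGG of SP factors, present in 35.9% of coding TSS windows, was at 36.5% of two-strand and 38.1% of one-strand summits. CCAAT, the NF-Y site, was at 7.89% and 8.14%, beside 9.34% of the TSS windows, and the E′-box CACGTT at 6.11% and 6.12%. TATAAA was at 2 members, 0.394% beside 5.18% of coding TSS windows, and the YY1 core AAGATGGC also at 2, beside 3.03%. The NRF1 site CGCATGCG and the cyclic AMP response element TGACGTCA, held by 1.22% and 1.19% of coding TSS windows, were at 0 of 507. That allows a share of up to 0.592% when the limit is set at 3 counts, and up to 0.752% by the Wilson interval. One-strand summits held the NRF1 site at 0.0875% and the cyclic AMP response element at 0.525%. The coding windows are centred on a TSS, while the nearest TSS lay a median 81 bp from two-strand summits.

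The members' genes were read against 8 short lists of genes, each a selection from its class that leaves out many genes of the same function. A two-strand summit lay within 1 kb of 536 of 20098 coding genes (2.67%). Among the 7408 with an opposite-strand TSS within 1 kb it was 529 (7.14%), and among the other 12690 it was 7. Genes with such a TSS numbered 29 of 45 in the DNA repair list, 20 of 40 in lysosome and autophagy and 26 of 43 in the mitochondrial list. They numbered 28 of 42 in cell cycle and replication, 17 of 35 in ribosome and translation, 10 of 20 in glycolysis and 11 of 30 among androgen receptor targets. In the clock list a two-strand summit lay within 1 kb of 6 of 25 genes (24.0%), namely BHLHE40, CIART, CRY1, DBP, NR1D2 and PER2, and 12 of the 25 had an opposite-strand TSS within 1 kb. A CRY1 summit of any class was found for 15 of the 25, so the clock share is not particular to two-strand promoters. Over all 20098 coding genes, 1342 (6.68%) had a CRY1 summit of any class within 1 kb. DBP, a clock output transcription factor, faced the pseudogene SEC1P across 692 bp with a summit of 17.1-fold enrichment and a −log10 q of 49.4 and no E-box in the peak. BHLHE40, a repressor that binds E-boxes, had a weaker summit of 4.51-fold enrichment and a −log10 q of 3.13.

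In the glycolysis list 3 of 20 genes (15.0%) had a two-strand summit, and 9 had a CRY1 summit of any class. PDK1, a kinase that restrains pyruvate entry into mitochondria, had a peak of 5.96-fold and GAPDH 5.78-fold, while ENO1, which encodes enolase, had 2 summits of 5.74- and 4.57-fold. Only PDK1 and the stronger ENO1 summit had an E-box within 50 bp. Among ribosome and translation genes it was 2 of 35 (5.71%), EEF1A1 at 6.86-fold with an E-box 16.5 bp from the summit and EIF3E as given above. Cell cycle and replication genes numbered 3 of 42 (7.14%), with CCNE2 at 6.65- and 4.92-fold, CDK2 at 4.60-fold and MCM7, a subunit of the replicative helicase, at 2.89-fold.

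The other lists had a member or a pair of members each. Lysosome and autophagy genes numbered 2 of 40 (5%), GABARAP at 4.85-fold and HEXA, a lysosomal hexosaminidase, at 3.34-fold. Outside the list lay CLN6 at 19.4-fold and LAMTOR4 at 15.7-fold, described above, and, chosen after their values were seen, the autophagy genes BECN1 at 6.45-fold and ATG12 at 5.96- and 5.50-fold and the lysosomal ceramidase gene ASAH1 at 5.29- and 4.24-fold. The BECN1 summit was 167 bp from the BECN1 TSS and 23 bp from that of PSME3. The stronger ATG12 summit was 59 bp from the ATG12 TSS and 32 bp from that of AP3S1, and the weaker was 2 bp from the ATG12 TSS. DNA repair genes numbered 1 of 45 (2.22%), the mismatch repair gene PMS2, whose summit beside AIMP2 had 11.0-fold enrichment and no E-box within 50 bp. That summit was 154 bp from the PMS2 TSS and 6 bp from that of AIMP2. Other repair and damage-response genes outside the list, also chosen after their values were seen, were SHLD2 at 11.4-fold, MMS19 at 9.05-fold, PARP3 at 8.86-fold, POLI at 6.34-, 6.19- and 3.57-fold, RAD17 at 6.22- and 2.76-fold and MUS81 at 4.24-fold. The SHLD2, PARP3 and MUS81 summits were 358, 437 and 83 bp from those genes. They lay nearer to the partner gene, at 5 bp from GLUD1, 4 bp from RRP9 and 10 bp from CFL1. The 6.34-fold POLI summit was 748 bp from POLI and 312 bp from an lncRNA TSS. The 6.19-fold POLI summit lay nearer to POLI, at 136 bp, and 647 bp from the lncRNA TSS. The MMS19 and stronger RAD17 summits lay nearer to the repair gene, at 60 and 76 bp. The other lists were not extended in this way, so these additions do not set the lists apart. Genes outside them also had members, such as the cell cycle gene CDKN2C at 8.25-fold, the translation gene EIF3A at 5.96-fold and the mitochondrial gene NDUFA11 at 5.69-fold. Mitochondrial genes in their list numbered 1 of 43 (2.33%), MRPL40 at 5.55-fold, and androgen receptor targets 1 of 30 (3.33%), PMEPA1 at 3.24-fold. A CRY1 summit of any class was found for 8 of 30 androgen receptor targets and 8 of 35 ribosome and translation genes. For lysosome and autophagy genes it was 8 of 40, and for cell cycle and replication genes 6 of 42. For DNA repair genes it was 3 of 45, and for mitochondrial genes 1 of 43. With 1 to 3 genes at a two-strand summit in 7 of the 8 lists, the shares of the lists are counts only, and the lists received no test.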

How the data were processed

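The labels describe 3 libraries of C4-2 chromatin, 2 CRY1 immunoprecipitates and 1 input. Per the study's methods and the labels, the authors aligned reads to hg19 with bowtie2. They ran MACS2 once, on the pooled immunoprecipitates, with q < 0.05 as the limit. Handling of duplicate reads is not given in the sources used here. The deposited list holds 2551 peaks, each with its summit, fold enrichment (a linear ratio of pileup over local background) and −log10 q value, all computed by the authors. Depth is not in the list. The 2 peaks on unplaced contigs were left out.

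Here, TSSs of all GENCODE release 44 transcripts on GRCh37 were placed around each summit, and the nearest on each strand gave the pair, its arrangement and the summit's position. Motifs were counted within 50 bp of the summit. Classes were compared by two-sided Fisher's exact tests, splitting fold enrichment and width at the median of the list, with Benjamini-Hochberg adjustment over 13 comparisons, of which the nearer TSS at coding-lncRNA pairs is given as a description only. The calculation was tested on simulated data (Python 3.11.15, scipy 1.17.1, pysam 0.24.0).

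Named genes are the 10 members with the highest −log10 q, the 3 highest of each pair type with 20 or more members and of those without an E-box, members at listed genes, the 3 shortest and longest divergent distances, and the summits nearest the 1 kb limit. Members and lists were chosen with earlier results of these data known. Alternatives covered transcript sets, the TSS distance, fold enrichment and q limits, 1 summit per locus, GC tertiles and the cut point.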

Additional observations from a re-analysis of the deposited data

How the results depend on the processing

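Of 149 alternative values, 120 kept their direction and side of the threshold, or lay within the interval of the value reported. Odds ratios that crossed 1 were all of comparisons that did not pass the adjusted test in either form. For fold enrichment these were, for divergent against overlapping pairs, 0.914 with the basic transcript set, 0.668 among peaks of at least 5-fold enrichment, 0.984 at q < 0.01 and 0.992 within E-box presence; against one-strand summits, 1.10 with TSSs within 500 bp, 1.01 with 1 summit per locus and 1.01 among peaks of at least 5-fold enrichment; and against summits beyond 1 kb, 0.980 among those peaks and 0.936 with the upper quartile. For width they were, for divergent against overlapping pairs, 1.15 with the basic set, 1.80 with 1 canonical transcript per gene, 1.07 with 1 summit per locus and 1.27 with the upper quartile; against summits beyond 1 kb, 1.27 among peaks of at least 5-fold enrichment, 1.18 with 1 summit per locus and 1.08 with the upper quartile; and for coding-coding against coding-lncRNA pairs 0.965 among peaks of at least 5-fold enrichment. The share of summits nearer to the coding TSS, given with no test, was 59.0% with TSSs within 500 bp and 59.6% among peaks of at least 5-fold enrichment. The call was lost for the E-box odds ratio against summits beyond 1 kb (0.716 within GC tertiles) and gained for fold enrichment against the same summits (1.37 with 1 summit per locus, 1.36 within E-box presence). The members' share was 18.2% with the basic set, 15.6% with canonical transcripts and 13.4% with TSSs within 500 bp, where fewer TSSs or a shorter reach leave fewer members, and the share between divergent TSSs was 35.1% in the last. The density ratio was 5.17 with the basic set, 4.69 with canonical transcripts and 4.13 within 100 bp of the nearest TSS, the last added after seeing the data. The cause of the other changes was not tested here. No paired analysis was possible because peaks were called once on both immunoprecipitates combined, and for the same reason neither replicate could be left out. Depth is unknown, so a promoter without a peak may hold binding below the limit of detection.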

Other observations

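Some strong members lay at genes outside the naming rule, and the following were chosen after their values were seen. PAICS and PPAT, which encode enzymes of purine synthesis and are transcribed away from each other across 645 bp, had a summit of 17.6-fold enrichment (−log10 q 50.8) on the PAICS side, with 4 E-boxes in the peak and the nearest 33.5 bp from the summit. PNP, a purine salvage enzyme, faced PIP4P1 across 527 bp with a summit of 13.8-fold enrichment between them and an E-box 9.5 bp away. HIF1A, which encodes the hypoxia-inducible factor subunit, and its antisense lncRNA HIF1A-AS1 had a summit of 13.5-fold enrichment with an E-box 5.5 bp away. KIF1C, a kinesin, and INCA1, an inhibitor of cyclin-dependent kinase, had a summit of 16.0-fold enrichment between their TSSs and no E-box in the peak.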
